A study of Rattus norvegicus with 2 samples.

Results

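Glutathione transferases and antioxidant enzymes were described in rat lung on 2 Affymetrix Rat Genome 230 2.0 arrays, 1 array prepared by each of 2 experimenters, called here experimenter 2 and experimenter 1 by the numbers in the array titles. The members were the probe sets, other than controls, whose platform annotation gave a single gene symbol of the glutathione transferase, glutathione peroxidase, peroxiredoxin, thioredoxin, superoxide dismutase or catalase families, or *Gclc*, *Gclm*, *Gsr*, *Nqo1*, *Hmox1*, *Hmox2* or *Srxn1*. The rule found 71 of 31042 probe sets, which belong to 62 of 14217 genes. Both groups were total RNA of lung labelled with biotin, and the labels name no strain, sex, age, treatment or number of animals and do not say whether the experimenters started from the same lung. The study's title names reproducibility as its question. With a single array for each experimenter there was no replicate error and no test, so each difference compares 2 arrays and not 2 conditions.

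Cells make superoxide and hydrogen peroxide as they respire. Superoxide dismutases turn superoxide into hydrogen peroxide, and catalase breaks the peroxide down to water and oxygen. Glutathione peroxidases and peroxiredoxins also reduce peroxides, drawing electrons from glutathione or thioredoxin that are restored by NADPH-dependent reductases. Glutathione transferases join glutathione to reactive organic molecules, and many of these genes are switched on by the transcription factor Nrf2. The lung faces oxygen and inhaled oxidants directly, and its lining fluid is rich in glutathione.

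Values are log2 RMA (robust multi-array average) signals and each difference is experimenter 2 minus experimenter 1. A gene with several probe sets is given by its brightest. The median of all probe sets was 6.28 for experimenter 2 and 6.32 for experimenter 1, and the median difference over all of them was -0.052. A signal depends on its probes as well as on the RNA, so the order of genes below is an order of signals, not of RNA amounts. In a piece of whole lung, a different share of a cell type and a different amount of RNA per cell cannot be told apart. The listed markers of lung epithelium, *Sftpc*, *Sftpb*, *Ager* and *Scgb1a1*, ranged from 12.70 to 14.44 for experimenter 2 and from 12.79 to 14.39 for experimenter 1, near the top of both arrays. The gap between the 3' and 5' control probe sets of *Actb*, which widens as labelled RNA shortens, was 2.71 for experimenter 2 and 2.15 for experimenter 1. The same gap was 1.36 for experimenter 2 and 1.13 for experimenter 1 in *Hk1*. In *Gapdh* it was 0.261 for experimenter 2 and 0.298 for experimenter 1, the other direction but a much smaller difference. The part of RNA length in the differences below was not tested.

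These enzymes gave bright signals, and the arrays placed them in nearly the same order. Of the 71 member probe sets, 57 (80.3%) averaged no less than the array-wide median of 6.31, and 26 (36.6%) lay in the brightest 10% of all probe sets. Every member has a gene symbol, while 9780 of the 31042 probe sets have none, so genes are the closer comparison. Members and all genes were each taken by their brightest probe set. By gene, 87.1% of members reached that median, against 67.2% of all genes. The brightest 10% of probe sets held 41.9% of member genes, against 16.7% of all genes. Over the 62 genes Pearson's r between the arrays was 0.996 and the rank correlation (Spearman's rho) was 0.993. Both are across genes of the same pair of arrays, which are not independent replicates, and over all 14217 genes they were 0.994 and 0.993. Of the 62 genes, 18 had the same rank on both arrays, 38 moved by 1 to 3 ranks and 6 by more, with a largest shift of 6.

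The brightest signals came from thioredoxin, its inhibitor *Txnip* and enzymes that remove peroxides and superoxide. *Txn1*, the cytosolic thioredoxin, measured 13.27 for experimenter 2 and 13.30 for experimenter 1. *Gpx1*, the cytosolic glutathione peroxidase, measured 13.22 for experimenter 2 and 13.28 for experimenter 1. These 2 genes led the order on both arrays. *Txnip*, which binds and inhibits thioredoxin, measured 12.80 for experimenter 2 and 12.68 for experimenter 1. *Prdx6*, a peroxiredoxin with phospholipase activity that takes part in the turnover of surfactant lipid, measured 12.002 for experimenter 2 and 12.22 for experimenter 1. *Sod1*, the copper and zinc superoxide dismutase of the cytosol, measured 11.96 for experimenter 2 and 11.98 for experimenter 1. These 5 genes held ranks 1 to 5 on both arrays. Below them came *Gpx3*, the secreted peroxidase of plasma, at 11.91 for experimenter 2 and 11.88 for experimenter 1, and *Gstp1*, the pi class glutathione transferase, at 11.93 for experimenter 2 and 11.86 for experimenter 1. These neighbours changed places between the arrays and were among the 31 of 61 neighbouring pairs in the order that did so. The brightest 12 genes of each array had 11 in common: *Gsta1* was among them for experimenter 2, and *Gpx2* for experimenter 1.

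**Figure D1:**
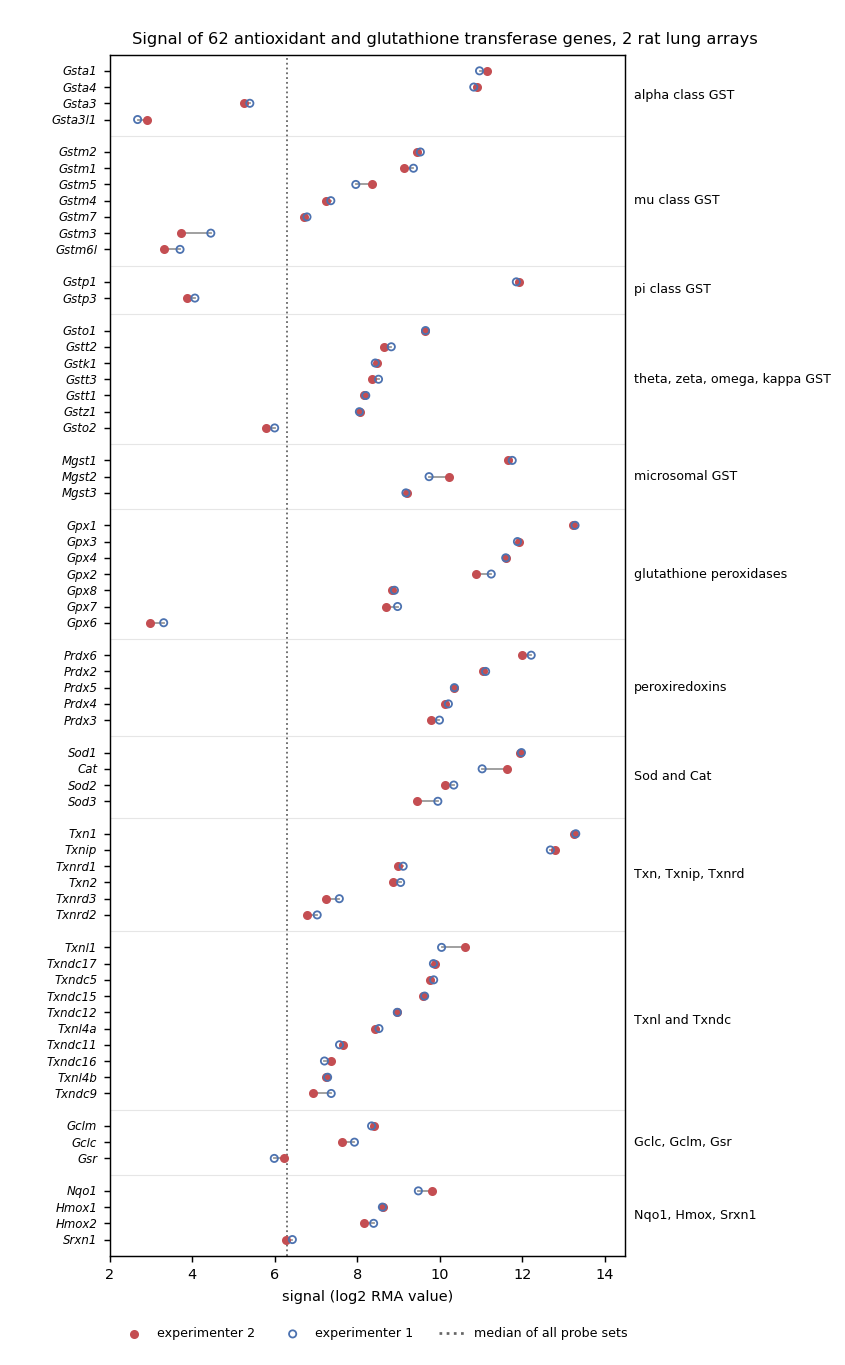
Signal of each of the 62 genes by its brightest probe set, in log2 RMA units on the x axis, with genes grouped by class and filled points for experimenter 2, open points for experimenter 1. The paired points lie close together across a range from 2.91 to 13.27 for experimenter 2 and from 2.67 to 13.30 for experimenter 1, with the widest gaps at *Gstm3*, *Cat* and *Txnl1*.

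Among the cytosolic glutathione transferases, the alpha, mu and pi classes each held bright and dim genes. *Gsta1* measured 11.14 for experimenter 2 and 10.96 for experimenter 1, and *Gsta4*, which acts on the lipid peroxidation product hydroxynonenal, measured 10.91 for experimenter 2 and 10.82 for experimenter 1. *Gsta3* measured 5.25 for experimenter 2 and 5.39 for experimenter 1, and *Gsta3l1* gave the lowest signal of the 62 genes on both arrays at 2.91 for experimenter 2 and 2.67 for experimenter 1. The alpha class was higher for experimenter 2 in 3 of 4 genes, the dim *Gsta3l1* among them, with a median difference of 0.13. The same count held after median centring, loess and quantile normalization of the arrays. All 3 moved the differences of this class upward, so only *Gsta3* could have turned. It stayed lower, at -0.11, -0.095 and -0.10 in that order. The pi class had the same split of levels, since *Gstp1*, which is also the classical marker of preneoplastic foci in rat liver, was bright and *Gstp3* measured only 3.86 for experimenter 2 and 4.06 for experimenter 1. Alpha and mu transferases are families of similar sequences, and how far their probe sets also bind related transcripts was not tested.

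The mu class was lower for experimenter 2 in 6 of 7 genes, with a median difference of -0.12, against -0.049 over all genes, and the count was the same under each of these 3 normalizations. *Gstm2* measured 9.45 for experimenter 2 and 9.53 for experimenter 1 and *Gstm1* 9.13 for experimenter 2 and 9.36 for experimenter 1. *Gstm4* measured 7.23 for experimenter 2 and 7.36 for experimenter 1 and *Gstm7* 6.70 for experimenter 2 and 6.78 for experimenter 1. The exception was *Gstm5*, at 8.37 for experimenter 2 and 7.96 for experimenter 1, a difference of 0.40. The dim members were *Gstm3*, at 3.73 for experimenter 2 and 4.45 for experimenter 1, and *Gstm6l*, at 3.31 for experimenter 2 and 3.70 for experimenter 1, and they had the most negative differences of the class, -0.72 and -0.39. The difference of *Gstm3*, 1.65-fold, was the largest among the 62 genes, and it lay at a signal under the lower quartile of experimenter 2 (4.37) and just above that of experimenter 1 (4.42).

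The theta, zeta, omega and kappa classes were close on the 2 arrays, with differences from -0.21 to 0.048 over 7 genes. *Gsto1*, an omega transferase that also reduces dehydroascorbate, measured 9.65 for experimenter 2 and 9.66 for experimenter 1, the brightest of the group, while *Gsto2* measured 5.78 for experimenter 2 and 5.997 for experimenter 1. *Gstz1*, the maleylacetoacetate isomerase of tyrosine breakdown, measured 8.07 for experimenter 2 and 8.05 for experimenter 1, and *Gstk1*, of mitochondria and peroxisomes, 8.48 for experimenter 2 and 8.44 for experimenter 1. Of the theta genes, *Gstt1* measured 8.15 for experimenter 2 and 8.21 for experimenter 1, *Gstt2* 8.66 for experimenter 2 and 8.83 for experimenter 1 and *Gstt3* 8.35 for experimenter 2 and 8.52 for experimenter 1. All of this group except *Gsto2* lay above the median of all probe sets on both arrays.

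The 3 membrane-bound transferases were all bright. *Mgst1*, of the endoplasmic reticulum and the outer mitochondrial membrane, measured 11.66 for experimenter 2 and 11.76 for experimenter 1, and *Mgst3* measured 9.21 for experimenter 2 and 9.18 for experimenter 1. *Mgst2*, which can make leukotriene C4, measured 10.22 for experimenter 2 and 9.74 for experimenter 1. Its difference of 0.48 was larger in size than those of *Mgst1* (-0.10) and *Mgst3* (0.033).

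Glutathione peroxidases were lower for experimenter 2 in 6 of 7 genes, with a median of -0.067, against -0.049 over all genes. After each of the 3 normalizations 5 of 7 were lower, and *Gpx4* was no longer lower. *Gpx4*, which reduces lipid hydroperoxides in membranes, measured 11.59 for experimenter 2 and 11.60 for experimenter 1, the smallest difference of the 62 genes at -0.0053. *Gpx2*, the peroxidase of epithelia, measured 10.88 for experimenter 2 and 11.25 for experimenter 1, the largest of the family at -0.36. *Gpx7* and *Gpx8*, peroxidases of the endoplasmic reticulum, measured 8.70 for experimenter 2 and 8.98 for experimenter 1, and 8.83 for experimenter 2 and 8.90 for experimenter 1. *Gpx6*, known from olfactory tissue, measured 2.98 for experimenter 2 and 3.31 for experimenter 1, below the lower quartile of each array.

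All 5 peroxiredoxins measured were lower for experimenter 2, with differences from -0.22 to -0.0080 and a median of -0.073. Over all genes 58.7% were lower, with a median of -0.049. *Prdx5* turned to higher under each of the 3 normalizations, which left 4 of 5 lower. *Prdx1* was not among the members. *Prdx6* had the widest gap and *Prdx5*, at 10.35 for experimenter 2 and 10.35 for experimenter 1, the narrowest. *Prdx2*, abundant in red cells, measured 11.05 for experimenter 2 and 11.11 for experimenter 1. The mitochondrial *Prdx3* measured 9.79 for experimenter 2 and 9.99 for experimenter 1, and *Prdx4*, of the endoplasmic reticulum, 10.14 for experimenter 2 and 10.21 for experimenter 1. The family spanned 9.79 to 12.002 for experimenter 2 and 9.99 to 12.22 for experimenter 1, so all 5 were bright. A further 2 probe sets whose annotation lists several symbols, at least 1 of which fits the rule, were not used.

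Catalase and the extracellular superoxide dismutase differed in opposite directions. *Cat*, the peroxisomal enzyme that splits hydrogen peroxide, measured 11.62 for experimenter 2 and 11.03 for experimenter 1, a 1.51-fold difference. *Sod3*, the extracellular superoxide dismutase of vessel walls and lung matrix, measured 9.46 for experimenter 2 and 9.95 for experimenter 1, a difference of -0.49. *Sod2*, the manganese enzyme of mitochondria, measured 10.12 for experimenter 2 and 10.34 for experimenter 1, and *Sod1* differed by only -0.025. *Cat* and *Sod3* have a single probe set each on the array, so no second measurement of them was at hand.

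Red cells and liver hold much catalase, so their markers are given beside it. Of 6 red cell markers listed, 3 were measured: *Hbb*, the beta globin gene, at 13.90 for experimenter 2 and 13.73 for experimenter 1, *Alas2*, the heme synthesis enzyme of red cells, at 8.36 for experimenter 2 and 8.79 for experimenter 1, and *Slc4a1*, the anion exchanger, at 6.02 for experimenter 2 and 6.22 for experimenter 1. Their mean signal was 9.43 for experimenter 2 and 9.58 for experimenter 1, with 1 of 3 higher for experimenter 2. A slightly dimmer probe set of *Slc4a1* went the other way, at 5.59 for experimenter 2 and 5.40 for experimenter 1. The count of red cell markers therefore depends on which probe set stands for *Slc4a1*. All 4 liver markers, *Alb*, *Apoa1*, *Serpina1* and *Tat*, were lower for experimenter 2, with a mean signal of 4.58 for experimenter 2 and 4.91 for experimenter 1. *Apoa1* and *Tat* lay under the lower quartile of each array, 4.37 for experimenter 2 and 4.42 for experimenter 1. *Alb* lay under the median of each array, and only *Serpina1* lay above it. Markers of cardiac muscle averaged 3.89 for experimenter 2 and 4.07 for experimenter 1, and those of adipose tissue 3.97 for experimenter 2 and 4.196 for experimenter 1, these cardiac and adipose means all under the lower quartile of their array. Of 3 macrophage markers listed, both of those measured were lower for experimenter 2, *Cd68* at 10.16 for experimenter 2 and 10.39 for experimenter 1 and *Mrc1* at 10.42 for experimenter 2 and 10.56 for experimenter 1. Of 3 endothelial markers listed, 2 were measured: *Pecam1* at 10.41 for experimenter 2 and 10.70 for experimenter 1, and *Ramp2* at 12.48 for experimenter 2 and 12.47 for experimenter 1. No marker was at 0, since RMA gives every probe set a value, and the part of any of these cell types in the differences of the members was not tested.

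The thioredoxin system was lower for experimenter 2 in 5 of 6 genes, *Txnip* being the exception. Its median was -0.15, against -0.049 over all genes. After median centring 4 of 6 were lower, as *Txn1* turned. *Txnrd1*, the cytosolic thioredoxin reductase, measured 8.99 for experimenter 2 and 9.11 for experimenter 1. *Txnip* and *Nqo1* are read by probe sets whose suffix marks several transcripts of a gene. The mitochondrial partners *Txn2* and *Txnrd2* measured 8.87 for experimenter 2 and 9.05 for experimenter 1, and 6.77 for experimenter 2 and 7.03 for experimenter 1. *Txnrd3*, a reductase known from testis, measured 7.24 for experimenter 2 and 7.56 for experimenter 1, the largest difference of the system at -0.32.

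Genes that carry a thioredoxin-like domain but are not thioredoxins made up 10 of the 62, and their differences lay on both sides of 0, with 4 higher and 6 lower as deposited but 7 higher and 3 lower under each of the 3 normalizations. *Txnl1*, a thioredoxin-like protein bound to the proteasome, measured 10.62 for experimenter 2 and 10.04 for experimenter 1, a difference of 0.58, just under 1.5-fold. *Txndc9*, a cochaperone for protein folding, measured 6.92 for experimenter 2 and 7.37 for experimenter 1, a difference of -0.45. The other eight differed by less. *Txndc17* measured 9.89 for experimenter 2 and 9.85 for experimenter 1, *Txndc5*, a disulfide isomerase of the endoplasmic reticulum, 9.77 for experimenter 2 and 9.85 for experimenter 1, and *Txndc15* 9.60 for experimenter 2 and 9.63 for experimenter 1. *Txndc12*, also of the endoplasmic reticulum, measured 8.96 for experimenter 2 and 8.97 for experimenter 1. The spliceosome proteins *Txnl4a* and *Txnl4b* measured 8.44 for experimenter 2 and 8.53 for experimenter 1, and 7.25 for experimenter 2 and 7.28 for experimenter 1. *Txndc11* measured 7.66 for experimenter 2 and 7.57 for experimenter 1 and *Txndc16* 7.37 for experimenter 2 and 7.20 for experimenter 1.

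Enzymes that make and recycle glutathione, and the stress-inducible enzymes, had differences of both signs. *Gclc*, the catalytic subunit of glutamate-cysteine ligase that sets the rate of glutathione synthesis, measured 7.63 for experimenter 2 and 7.93 for experimenter 1, a difference of -0.30. *Gclm*, its modifier subunit, measured 8.40 for experimenter 2 and 8.35 for experimenter 1, a difference of 0.054. *Gsr*, glutathione reductase, measured 6.22 for experimenter 2 and 5.99 for experimenter 1, below the median of both arrays. *Nqo1*, a quinone reductase, measured 9.81 for experimenter 2 and 9.48 for experimenter 1, a difference of 0.33. *Hmox1*, the inducible heme oxygenase, measured 8.62 for experimenter 2 and 8.61 for experimenter 1, almost the same on both arrays, and the constitutive *Hmox2* 8.16 for experimenter 2 and 8.40 for experimenter 1. *Srxn1*, sulfiredoxin, which restores overoxidised peroxiredoxins, measured 6.28 for experimenter 2 and 6.43 for experimenter 1. Of these 7 genes, 4 were higher for experimenter 2 and 3 lower.

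Counted over probe sets, 1 of 71 members was at least 1.5-fold higher for experimenter 2 (*Cat*), where 2.05% of all probe sets were, and 1 was at least 1.5-fold lower (*Gstm3*), where 2.3% were. Together these are 2.82% of the members, beside 4.35% of all 31042 probe sets in either direction. No member reached 2-fold in either direction, where 0.261% of all probe sets were higher and 0.11% lower, together 0.37%. Among the 57 members with a mean signal no lower than the median, 1 was at least 1.5-fold higher and 0 lower, against 2.27% and 1.62% of all probe sets at such levels, together 3.9%. The members' share is near the background at both thresholds. The SD of the difference was 0.24 over members and 0.28 over all probe sets, and 77.5% of members differed by less than 1.2-fold, against 69.4% of all probe sets. Members were lower for experimenter 2 in 48 of 71 probe sets (67.6%), against 58.7% of all probe sets, with medians of -0.063 and -0.052. By gene, 20 of 62 were higher and 42 lower as deposited, against 28 higher and 34 lower after median centring, 27 and 35 after loess and 25 and 36 after quantile normalization.

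**Figure D2:**
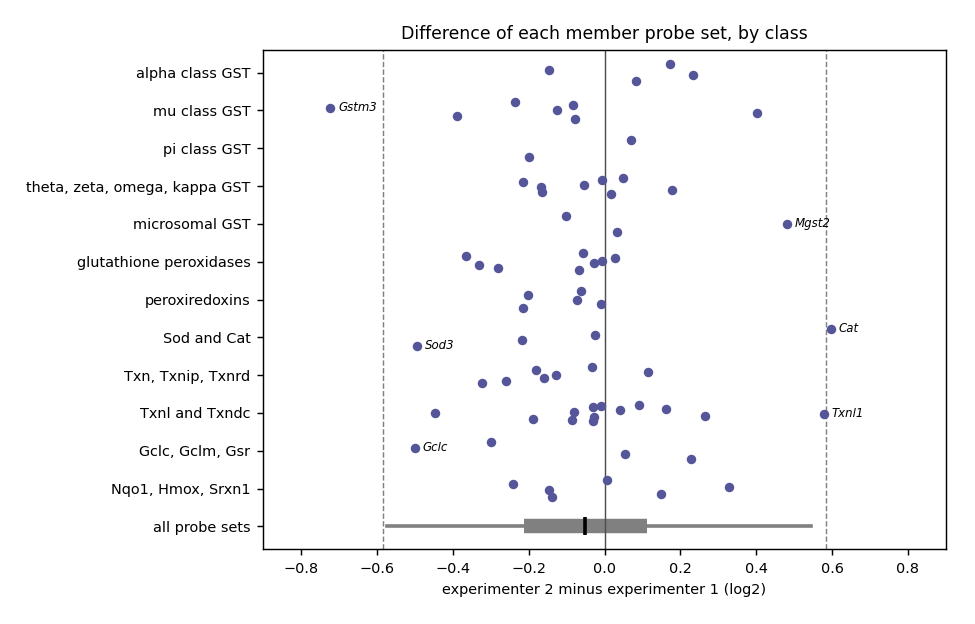
Difference of each of the 71 member probe sets (x axis, experimenter 2 minus experimenter 1, log2) by class (rows), with dashed lines at 1.5-fold. In the lowest row the thick bar spans the middle 50% of all probe sets, the thin bar the central 95% and the tick their median of -0.052. *Cat* and *Gstm3* are the 2 points past the dashed lines.

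The spread of differences over all probe sets changes with level, so members were also set beside probe sets of similar signal. In 10 bins of mean signal, 4 of the 71 members (5.63%) lay outside the central 95% of their bin. These were *Cat* and the brightest probe set of *Txnl1* above it, and *Sod3* and *Gstm3* below it. The first 3 fall in the brightest bin, which holds 26 members and where the central 95% ran from -0.41 to 0.50. *Mgst2*, in the same bin, lay inside it. Below the median signal the members were lower for experimenter 2 in 10 of 14 probe sets (71.4%), against 58.0% of all probe sets there. Their median was -0.14, against -0.052. At or above the median they were lower in 38 of 57 (66.7%), against 59.3%, with a median of -0.058 against -0.051.

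**Figure D3:**
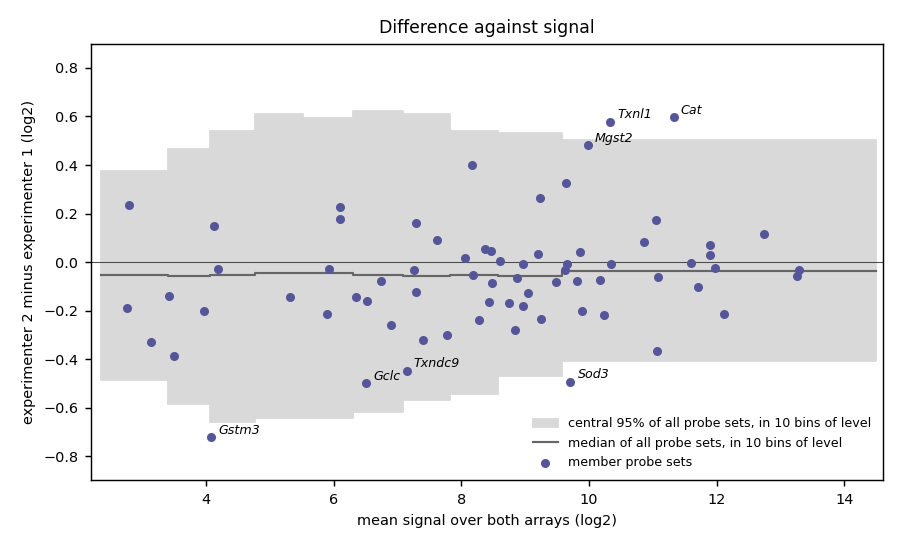
Difference (y axis, log2) against mean signal over both arrays (x axis, log2) for the 71 member probe sets, with the central 95% and the median of all probe sets in 10 bins of level in grey. *Cat*, *Txnl1*, *Sod3* and *Gstm3* lie outside the grey band.

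Another probe set of the same gene is the only repeat measurement on these arrays, and 6 of the 62 genes had more than a single probe set, 15 in all. *Gclc* was lower for experimenter 2 by both, with differences of -0.30 (7.63 for experimenter 2 and 7.93 for experimenter 1) and -0.50 (6.26 for experimenter 2 and 6.76 for experimenter 1). *Txnrd1* was lower by both as well, by -0.13 and -0.16, and *Gpx4* by -0.0053 and -0.029. Both *Gpx4* values lay above the median difference of -0.052 over all probe sets. After median centring its brightest probe set was higher for experimenter 2, by 0.029. As deposited, these 3 genes had the same direction in each probe set, and *Gclc* had the largest differences of the 3.

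The other three genes had probe sets of opposite sign. *Txnl1* had 4 probe sets: the brightest differed by 0.58, the next (9.37 for experimenter 2 and 9.10 for experimenter 1) by 0.27, and the dim pair by -0.028 and -0.19, at mean signals of 4.19 and 2.76. Its brightest probe set carries a suffix that marks probes shared between transcripts. *Gstt2* differed by -0.17 and 0.18, and *Srxn1* by -0.15, 0.15 and -0.14, the last 2 at mean signals of 4.13 and 3.42. For *Txnl1* the range of 0.77 between probe sets was wider than 1.5-fold, while for the other five genes it was at most 0.35.

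**Figure D4:**
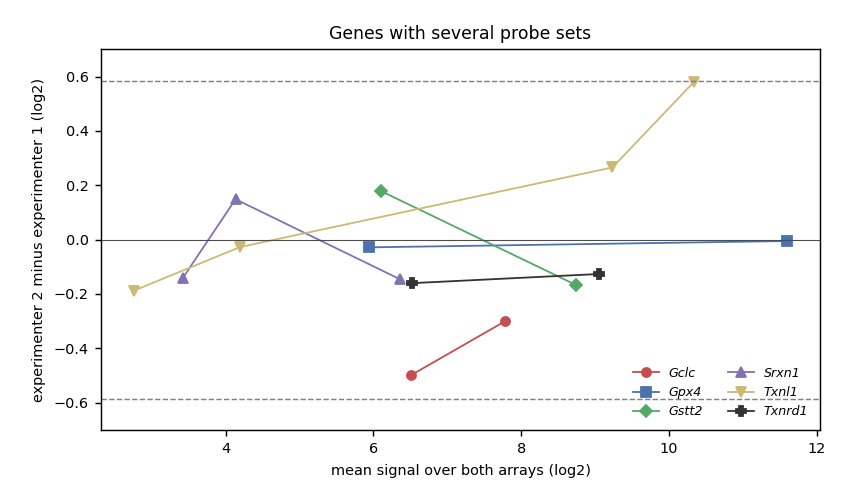
Difference (y axis, log2) against mean signal (x axis, log2) for the 15 probe sets of the 6 genes with several, joined within a gene, with dashed lines at 1.5-fold. Both *Gclc* points lie below 0, and the *Txnl1* points run from -0.19 at the dimmest to 0.58 at the brightest.

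The antioxidant response element, the DNA motif that Nrf2 binds with a small Maf protein, has the core TGACNNNGC. It was searched on both strands in windows from 250 bases before to 50 after a gene start (RefSeq, GRCr8). Windows were at hand for 52 of the 62 genes, 58 in all. A gene held the core if any of its windows did. Of these, 17 (32.7%) held the core, against 13.1% of all 27457 genes with such a window and 15.1% of the other 11649 genes of the array with one. Members of a family share sequence and are not independent, and a match is only a run of letters. Stretches of 10 bases either side of the core are shown for the alpha, mu and pi class transferases and for the peroxidase, ligase and reductase genes described above, to let the flanks be compared; capitals mark the core, read 5′ to 3′ on the strand that carries it.
Gstp1 (chr1:210769748-210769776, strand -): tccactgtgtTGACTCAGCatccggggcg
Gsta1 (chr9:31216484-31216512, strand -): aactcaggcaTGACTTTGCatttttcttc
Gsta3 (chr9:31154962-31154990, strand +): aactcaggcaTGACTTCGCattttttcct
Gstm5 (chr2:198219646-198219674, strand +): caaggccaagTGACCACGCggagggcggg
Gstm5 (chr2:198219706-198219734, strand +): tcagtcgcgtTGACCCCGCccacagcgtc
Gstm7 (chr2:198260315-198260343, strand -): gaggctagatTGACACAGCctgtccgttc
Gpx2 (chr6:101230028-101230056, strand +): attcccagaaTGACTTAGCgaaaccaggt
Gclm (chr2:213031953-213031981, strand -): tggaagacaaTGACTAAGCagaaaccgca
Txnrd1 (chr7:22755964-22755992, strand +): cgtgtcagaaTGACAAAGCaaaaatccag
The remaining genes with the core were *Gstz1*, *Hmox2*, *Prdx4*, *Prdx5*, *Sod2*, *Txndc5*, *Txndc11*, *Txndc17* and *Txnl4b*.

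The *Gsta1* and *Gsta3* stretches share their 5′ flank. *Gstp1* was the only member with the form TGACTCAGC, found in 0.484% of all genes with a window; this form also contains the AP-1 motif TGACTCA. Its window, chr1:210769656-210769955 on the minus strand, is printed whole as the only member window found to hold that form, here in capitals.
Gstp1 promoter: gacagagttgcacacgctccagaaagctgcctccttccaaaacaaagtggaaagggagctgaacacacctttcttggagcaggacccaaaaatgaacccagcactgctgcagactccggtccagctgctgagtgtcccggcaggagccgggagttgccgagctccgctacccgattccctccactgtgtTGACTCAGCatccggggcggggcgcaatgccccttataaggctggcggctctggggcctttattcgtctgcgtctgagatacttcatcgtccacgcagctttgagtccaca
Genes with the core in a window had a median difference of -0.031 (7 of 17 higher for experimenter 2) and the 35 without it -0.083 (9 higher). Sequence outside the windows was not searched, so these 35 may hold the core elsewhere. Their median signals were 8.99 with the core and 8.96 without it for experimenter 2, and 9.11 with the core and 9.05 without it for experimenter 1.

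Other genes of the same pathways, listed by role, were measured beside the members. Of 137 listed, 122 were measured, with 47 higher and 75 lower for experimenter 2 and a median of -0.062. Over all genes 58.7% were lower, with a median of -0.049. By brightest probe set only *Chac2*, a glutathione-degrading enzyme, passed 1.5-fold, at 7.82 for experimenter 2 and 7.07 for experimenter 1. Of all probe sets, 4.35% did so in either direction. The second probe set of *Chac2* differed in the opposite direction by -0.35. In the list of glutathione synthesis, turnover and transport, 8 of 21 were higher, with a median of -0.056. *Abcc1*, an exporter of glutathione conjugates, measured 8.69 for experimenter 2 and 9.25 for experimenter 1, *Slc3a2*, the heavy chain of the cystine transporter, 10.86 for experimenter 2 and 10.98 for experimenter 1, and *Anpep*, an aminopeptidase, 10.79 for experimenter 2 and 10.80 for experimenter 1.

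The regulators of Nrf2 had a median of -0.085, with 4 of 10 higher for experimenter 2. That median was -0.0027 where a gene's probe sets were averaged and 0.0014 with the second brightest probe set, so its direction depends on which probe set stands for the gene. *Nfe2l2*, the gene of Nrf2 itself, measured 10.90 for experimenter 2 and 10.70 for experimenter 1, and *Cul3*, the ligase scaffold that helps degrade it, 10.79 for experimenter 2 and 10.99 for experimenter 1. The 2 largest differences among these regulators were in small Maf genes and had opposite signs. *Mafg* measured 7.996 for experimenter 2 and 8.48 for experimenter 1, and *Maff* 6.33 for experimenter 2 and 6.03 for experimenter 1. A dimmer probe set of *Mafg* differed by only 0.028, so its direction did not hold across its probe sets. Enzymes that supply NADPH were lower in 8 of 10, with a median of -0.11: *Idh1*, the cytosolic isocitrate dehydrogenase, measured 9.97 for experimenter 2 and 10.31 for experimenter 1, *Nnt*, the mitochondrial transhydrogenase, 9.96 for experimenter 2 and 10.18 for experimenter 1, *Taldo1*, of the pentose phosphate pathway, 10.92 for experimenter 2 and 11.12 for experimenter 1, and *Idh2* 10.62 for experimenter 2 and 10.72 for experimenter 1. Quinone and carbonyl reducing enzymes and other Nrf2 targets were 10 higher and 10 lower, with a median of -0.032. *Ces1d*, a carboxylesterase, measured 12.28 for experimenter 2 and 12.17 for experimenter 1, and *Akr1a1*, an aldehyde reductase, 11.75 for experimenter 2 and 11.88 for experimenter 1. *Cbr4*, a carbonyl reductase, differed by 0.56 and *Ephx1*, microsomal epoxide hydrolase, by -0.37.

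Glutaredoxins and thiol repair genes had a median of -0.016 (7 of 18 higher). *Pdia3*, a disulfide isomerase, measured 11.98 for experimenter 2 and 12.13 for experimenter 1, and *P4hb* 11.31 for experimenter 2 and 11.08 for experimenter 1, while *Pdia6* differed by 0.42 and *Glrx2* by -0.25. Selenoproteins outside the rule and genes of selenium use had a median of -0.062 (7 of 16 higher). *Selenop*, the selenium transport protein of plasma, measured 13.70 for experimenter 2 and 13.39 for experimenter 1, *Selenof* 11.45 for experimenter 2 and 11.54 for experimenter 1, and *Sepsecs*, which makes selenocysteine, 8.41 for experimenter 2 and 8.74 for experimenter 1. Metal-linked and other antioxidant proteins had a median of -0.030 (5 of 15 higher). They were led by the lactonases *Pon3* at 11.88 for experimenter 2 and 11.76 for experimenter 1, and *Pon2* at 10.94 for experimenter 2 and 11.18 for experimenter 1. *Ucp2* differed by -0.40 and *Cp*, ceruloplasmin, by -0.32. The other probe sets of *Cp*, nearly as bright, differed by -0.19 and 0.048, so they disagreed in sign. Enzymes that produce oxidants had a median of -0.091 (4 of 12 higher). *Xdh*, xanthine dehydrogenase, measured 11.64 for experimenter 2 and 11.95 for experimenter 1, *Cybb*, the catalytic subunit of the phagocyte oxidase, 11.34 for experimenter 2 and 11.42 for experimenter 1, and *Noxo1*, an organizer of NADPH oxidases, differed by -0.49. Each list's median lay between -0.11 and -0.016, beside -0.049 over all genes. The medians of the thiol repair, metal-linked and quinone or carbonyl reducing lists turned to above 0 under each of the 3 normalizations, between 0.0023 and 0.036.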

How the data were processed

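The deposited signals are RMA output, per the submitters' processing notes; RMA corrects background, normalizes between arrays and reduces each probe set to a single value. Neither its version nor which arrays it was run on together is given in the sources used here. The authors' deposited values were read as log2 from their range. RMA makes no detection calls, so no limit of detection is known. The number of arrays limits the precision.

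Of 31042 probe sets besides 57 controls, 20826 had a single symbol in the platform annotation. Entrez identifiers were matched to GRCr8 for 20758 of them and for all 71 members. The probe set with the highest mean stood for its gene. Differences were counted by size (1.5-fold, and 2-fold as an alternative), since 1 array for each experimenter allows no test. Also tried were quantile normalization, subtraction of a loess fit of difference on level (span fraction 0.3), centring on the median, a filter at the median level, and the mean or the second brightest probe set of a gene. The code for counting and normalization was run on simulated data. Their planted differences lay well past 1.5-fold and their noise was smaller than the spread between the real arrays. That run checked the code only and does not show how exact the real differences are.

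The members and gene lists were chosen with earlier results of these data known. Every member could be named. Of each related list, the 2 brightest genes and the 2 with the largest difference were named. Python 3.11.15, numpy 2.4.6, pandas 2.3.3, statsmodels 0.14.6 and matplotlib 3.10.9 were used.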

Additional observations from a re-analysis of the deposited data

How the results depend on the processing

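No paired analysis was possible because there is a single array per experimenter, which also leaves no replicate to drop. Median centring, loess and quantile normalization each gave 2 members at least 1.5-fold higher for experimenter 2 in place of 1, *Txnl1* joining *Cat*, and left 1 lower. Over all probe sets the counts higher and lower were 636 and 715 as deposited, 754 and 570 after centring, 827 and 491 after loess and 792 and 521 after quantile normalization. At 2-fold, 0 members were higher and 0 lower, and among members at or above the median level 0 were lower. The median of the members ran from -0.063 to -0.029 over these settings. The median of *Nqo1*, the heme oxygenases and sulfiredoxin was 0.078 with second brightest probe sets, against -0.069, because the probe sets of *Srxn1* disagree. By the second brightest probe set the direction turned for *Gstt2* and *Srxn1*. The normalizations turned the sign of 6 to 8 of the 62 genes and of at most 2 of the 12 classes. Dim members such as *Gstm3* are limited by the lack of detection calls.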

Other observations

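*Selenop*, which carries selenium to the enzymes that need it, was singled out after its values were seen. Its brightest probe set differed by 0.31 (13.70 for experimenter 2 and 13.39 for experimenter 1), and its second by 1.15 (7.34 for experimenter 2 and 6.19 for experimenter 1). Both were higher for experimenter 2, and the second was past the 2-fold that no member reached. *Cul3*, seen in the same way, had a second bright probe set that differed by 0.39 (9.06 for experimenter 2 and 8.67 for experimenter 1) where its brightest differed by -0.20. *Gclc*, among the members, was lower for experimenter 2 by both of its probe sets, while its partner subunit *Gclm* differed by 0.054.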
